A study of Mus musculus with 16 samples.

Results

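The cluster of miR-132 and miR-212 comprises 2 neighbouring miRNA genes, Mir132 and Mir212, each of which gives a mature miRNA from either arm of its hairpin. Its 4 mature products, mmu-miR-132-3p, mmu-miR-132-5p, mmu-miR-212-3p and mmu-miR-212-5p, were taken by name from the 1881 mature mouse miRNAs on the array. MiRNA levels were measured in the lateral ventricle (LV) wall, the tissue lining the ventricle that carries multiciliated ependymal cells, of 8 Dgcr8+/- mice and 8 WT littermates. All mice were 8-month-old males from a line back-crossed to C57BL/6J, and RNA from 1 mouse was hybridised to each 1-colour array. The Dgcr8+/- mice lack 1 copy of Dgcr8 in every cell, so the genotype is not restricted to the ependyma, and the LV wall slice also holds neurons, glia and vessels. The comparison asks how the loss of 1 Dgcr8 copy altered miRNA levels in this tissue.

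MiRNA genes are transcribed as long primary transcripts, from which the Microprocessor, formed by Drosha and its RNA-binding partner Dgcr8, cuts the hairpin. Dicer then releases a duplex of both arms, one arm is usually retained in an Argonaute protein while its partner decays, and the retained arm represses mRNAs that match its seed. The shared transcript of miR-132 and miR-212 is known for its induction in neurons by synaptic activity and BDNF through the transcription factor CREB, and miR-132-3p for its effects on dendrites and spines.

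The mature sequences are shown because they define which products can share targets and which probes could cross-hybridise. They are from RefSeq (mouse build GRCm38.p6), run 5′ to 3′, and carry the seed, bases 2 to 8, in capitals:
mmu-miR-132-3p: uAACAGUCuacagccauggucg
mmu-miR-212-3p: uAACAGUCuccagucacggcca
mmu-miR-132-5p: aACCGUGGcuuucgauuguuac
mmu-miR-212-5p: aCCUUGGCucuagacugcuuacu
Both 3p arms share the seed AACAGUC, and no other of the 1679 mature names in the RefSeq miRNA table has it. They are identical at 17 of 22 positions. The differences, written with the miR-132-3p base first and counted from its 5′ end, are A10C, C14U, U17C, U20C and G22A, all outside the seed. The 5p arms have different seeds, ACCGUGG in miR-132-5p and CCUUGGC in miR-212-5p, and neither seed occurs in another mature name of the table. With miR-132-5p shifted by 1 base, the 5p arms are identical at 14 of 21 aligned positions.

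The genes lie in tandem on the + strand of chromosome 11. The Mir212 hairpin of 91 bases is at chr11:75173388-75173478 and the Mir132 hairpin of 66 bases at chr11:75173682-75173747, with 203 bases between them. Their neighbours in the gene table are Hic1 and Ovca2. Within the hairpins, miR-212-5p is at chr11:75173403-75173425 and miR-212-3p at chr11:75173443-75173464, while miR-132-5p is at chr11:75173686-75173707 and miR-132-3p at chr11:75173723-75173744. The arms are separated by 17 bases in Mir212 and 15 bases in Mir132.

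Each member had 2 probes of 15 spots on every array. Signals are given as log2 of the quantile-normalized signal, in which every array has the same distribution, so a change is relative to the other miRNAs of that array. Testing was limited to miRNAs called detected by the scanner software in 8 or more of the 16 mice, namely 495 miRNAs and 3 of the 4 members. MiR-132-3p, miR-212-3p and miR-212-5p were detected in all 16 mice and miR-132-5p in none. As the probes of different miRNAs bind with different strength, the signals are not compared between miRNAs.

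The arrays differed in ways that bear on these values. Slide 1 held 6 WT and 2 Dgcr8+/- arrays and slide 2 held 2 WT and 6, so values within each slide are given too. The summed signal of the miRNA spots was 21545358 to 29763412 in WT mice and 18528866 to 23440575 in Dgcr8+/- mice. The array of Dgcr8+/- replicate 2 stood apart, with a log2 signal of the hybridisation spike-ins of 12.7 against 13.9 to 15.1 on the other 15 arrays and the lowest summed signal. Results that rest on this array are given with and without it where both were run. In the dissected tissue, 5 of 6 listed miRNAs of multiciliated cells and all 6 of neurons were detected often enough to be tested. In bulk tissue, fewer cells of a type and less RNA per cell cannot be told apart.

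Of the 3 members tested, 1, miR-212-5p, was lower in Dgcr8+/- mice and 0 were higher at an adjusted p below 0.05 (limma with Benjamini-Hochberg adjustment over the 495 miRNAs). At the same threshold 27.9% of all tested miRNAs were lower and 28.3% were higher, so the count of members called is near the background. Before adjustment, miR-212-3p was higher as well.

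MiR-212-5p, the 5p arm of the Mir212 hairpin, fell. Its log2 signal was 6.54, 6.81 and 6.90 (lowest, median and highest of 8) in WT mice and 6.04, 6.27 and 6.43 in Dgcr8+/- mice. All 8 Dgcr8+/- mice thus lay below every WT mouse, with WT replicates 5 and 6 the lowest of the WT group. The means were 6.76 ± 0.14 (SD, n = 8) and 6.28 ± 0.13 (SD, n = 8), a log2 fold change of −0.48 (SE 0.07, 95% CI −0.63 to −0.34) or 71.6% of the WT level, with an adjusted p of 2.46e-05 from limma. The exact permutation test over all groupings of the mice gave a 2-sided p of 0.000155, the smallest that 8 mice against 8 allow. The log2 fold change was the 69th lowest of the 495, and it also passed the thresholds used in the study, a log2 change of more than 0.4 in size with p below 0.05 before adjustment. Of all tested miRNAs 18% passed these downward.

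The fall in miR-212-5p did not depend on a single probe, slide or mouse. Its probes gave log2 fold changes of −0.55 (SE 0.10) and −0.48 (SE 0.08). Within slide 1, which held Dgcr8+/- replicate 2, the difference of the means was −0.61 and within slide 2 it was −0.46. Before normalization between arrays, the signal was 88.5 to 163 signal units in WT mice and 45.4 to 83.8 in Dgcr8+/- mice, and the groups did not overlap there either. Most miRNAs were lower there, with a median log2 fold change of −0.39 over all tested miRNAs. Relative to that median, miR-212-5p was at −0.57. Without Dgcr8+/- replicate 2, which had the lowest level, the log2 fold change was −0.45. The size varied with the processing, from −0.96 with no normalization to −0.28 with a normexp background correction, and the call held in both.

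MiR-212-3p, the arm of the same hairpin that shares its seed with miR-132-3p, was not called. Its log2 signal was 9.41, 9.56 and 9.72 (lowest, median and highest of 8) in WT mice and 9.65, 9.70 and 10.45 in Dgcr8+/- mice. The groups overlapped, with 3 of 8 Dgcr8+/- mice above every WT mouse. The means were 9.58 ± 0.11 (SD, n = 8) and 9.81 ± 0.27 (SD, n = 8), a log2 fold change of 0.23 (SE 0.10, 95% CI 0.03 to 0.44), and the adjusted p of 0.0528 from limma missed the threshold (unadjusted p = 0.03). The exact permutation test of this single value gave p = 0.00761, which is not adjusted over the 495 miRNAs.

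Dgcr8+/- replicate 2, at 10.45, set the spread of miR-212-3p in its group, and the other 7 Dgcr8+/- mice were at 9.65 to 9.85. Without this mouse the log2 fold change was 0.14 and the adjusted p was 0.021 from limma, and over all 19 alternatives that kept every mouse the adjusted p ranged from 0.0049 to 0.199, with 10 of them past the threshold, 1 of these, with no normalization, in the opposite direction. Leaving out WT replicate 3 or Dgcr8+/- replicate 4, 5 or 7 also brought the adjusted p from limma past the threshold, at 0.0445 to 0.0483. The probes gave log2 fold changes of 0.20 (SE 0.08) and 0.25 (SE 0.11). The difference of the means was 0.45 within slide 1, which held replicate 2, and 0.27 within slide 2. Before normalization between arrays the signal was 741 to 1033 signal units in WT mice and 644 to 820 in Dgcr8+/- mice, and the direction turned, with a log2 fold change of −0.23 where the median of all tested miRNAs was −0.39.

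MiR-132-3p, the best studied product of the cluster in neurons, was not called. Its log2 signal was 11.65, 11.85 and 11.85 (lowest, median and highest of 8) in WT mice and 11.84, 11.87 and 11.93 in Dgcr8+/- mice. The groups overlapped, WT replicates 5 and 6 were the lowest, and 5 of 8 Dgcr8+/- mice were above every WT mouse. The means were 11.81 ± 0.07 (SD, n = 8) and 11.87 ± 0.03 (SD, n = 8), a log2 fold change of 0.07 (SE 0.04, 95% CI −0.01 to 0.15) with an adjusted p of 0.137 from limma. The exact permutation test of this single value gave p = 0.00932, not adjusted over the 495 miRNAs.

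Quantile normalization assigns signals by rank, and at this brightness ranks recur between arrays. MiR-132-3p took 10 distinct values over the 16 arrays, and 5 arrays shared a single value, so its spread is partly set by the normalization. Its probes gave log2 fold changes of 0.05 (SE 0.03) and 0.09 (SE 0.04), and the difference of the means was 0.10 within slide 1 and 0.01 within slide 2. Before normalization its signal was 3252 to 5457 signal units in WT mice and 1870 to 3792 in Dgcr8+/- mice, a log2 fold change of −0.47, which is −0.08 relative to the median of all tested miRNAs. With no normalization miR-132-3p was called lower (adjusted p = 0.00528 from limma), where 293 of the 495 tested miRNAs were. It was also called lower with labelling spike-in scaling (adjusted p = 0.00439 from limma), where 264 were. The direction of its change and its call therefore depended on the scaling.

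MiR-132-5p, the partner of miR-132-3p in the Mir132 hairpin, was not above background in either genotype. On the 16 arrays, 0 of its 480 spots were well above background. Its signal before normalization was 0.102 to 2.60 signal units in WT mice and 0.340 to 1.41 in Dgcr8+/- mice, while the mean of the negative control spots was 1.75 to 4.10 (SD of 2.66 to 3.26 between spots). On 15 of 16 arrays it was below the mean of the negative controls, and on the other, WT replicate 2, it was 2.60 against 2.43. No fold is given.

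**Figure D1:**
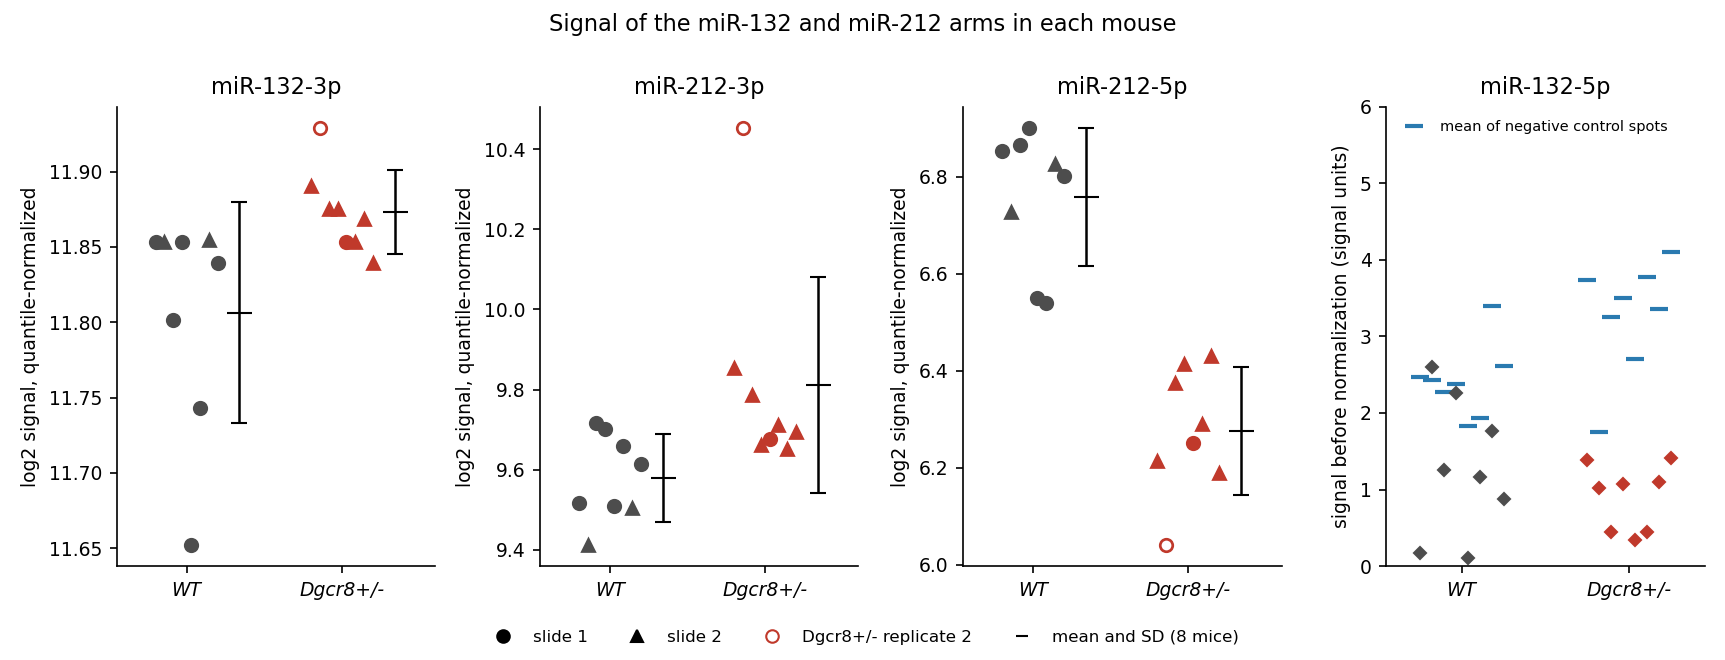
Each point is 1 mouse. The first 3 panels plot the log2 quantile-normalized signal of miR-132-3p, miR-212-3p and miR-212-5p in WT and Dgcr8+/- mice, with the mean and SD of 8 mice as bars, and the last panel plots the signal of miR-132-5p before normalization, in signal units, with the mean of the negative control spots of the same array as blue dashes. All Dgcr8+/- mice are below all WT mice for miR-212-5p, the groups overlap for both 3p arms, whose direction turned without normalization, and miR-132-5p lies near the negative controls. Each panel has its own axis, and the open circle is Dgcr8+/- replicate 2.

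A difference between 2 miRNAs within an array removes any scaling of that array as a whole, and so asks whether they changed by unequal amounts. With 3 detected members there were 3 such pairs, and p-values were adjusted over them. The differences were taken after quantile normalization, which acts by rank and does not cancel. With no normalization between arrays, the change was 0.72 for miR-212-3p minus miR-212-5p and 0.49 for miR-132-3p minus miR-212-5p. As reported, with quantile normalization: the difference of miR-212-3p minus miR-212-5p was 2.66 to 3.12 log2 units in WT mice and 3.22 to 4.41 in Dgcr8+/- mice. All 8 Dgcr8+/- mice lay above every WT mouse. The mean rose from 2.82 ± 0.16 (SD, n = 8) to 3.54 ± 0.38 (SD, n = 8), a change of 0.72 (2-sided exact permutation p = 0.000155, adjusted p = 0.000233). It was 1.05 within slide 1 and 0.73 within slide 2, and 0.59 without Dgcr8+/- replicate 2. Slide 1 held replicate 2 as 1 of its 2 Dgcr8+/- arrays, here and for the pairs below. The 2 arms of the Mir212 hairpin thus changed by unequal amounts.

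The difference of miR-132-3p minus miR-212-5p separated the genotypes as well. It was 4.94 to 5.20 log2 units in WT mice and 5.44 to 5.89 in Dgcr8+/- mice, again with no overlap. The mean rose from 5.05 ± 0.09 (SD, n = 8) to 5.60 ± 0.15 (SD, n = 8), a change of 0.55 (exact permutation p = 0.000155, adjusted p = 0.000233), with 0.71 within slide 1 and 0.47 within slide 2, and 0.51 without Dgcr8+/- replicate 2.

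The 3p arms, which share a seed, were not shown to change by unequal amounts. Their difference, miR-132-3p minus miR-212-3p, was 2.09 to 2.44 log2 units in WT mice and 1.47 to 2.22 in Dgcr8+/- mice, so the groups overlapped. The mean went from 2.23 ± 0.13 (SD, n = 8) to 2.06 ± 0.24 (SD, n = 8), a change of −0.17 (exact permutation p = 0.0844, adjusted p = 0.0844), with −0.35 within slide 1 and −0.26 within slide 2. With no normalization between arrays the change was −0.23 and the adjusted p of the exact permutation test was 0.0317, whereas without Dgcr8+/- replicate 2 the change was −0.08.

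**Figure D2:**
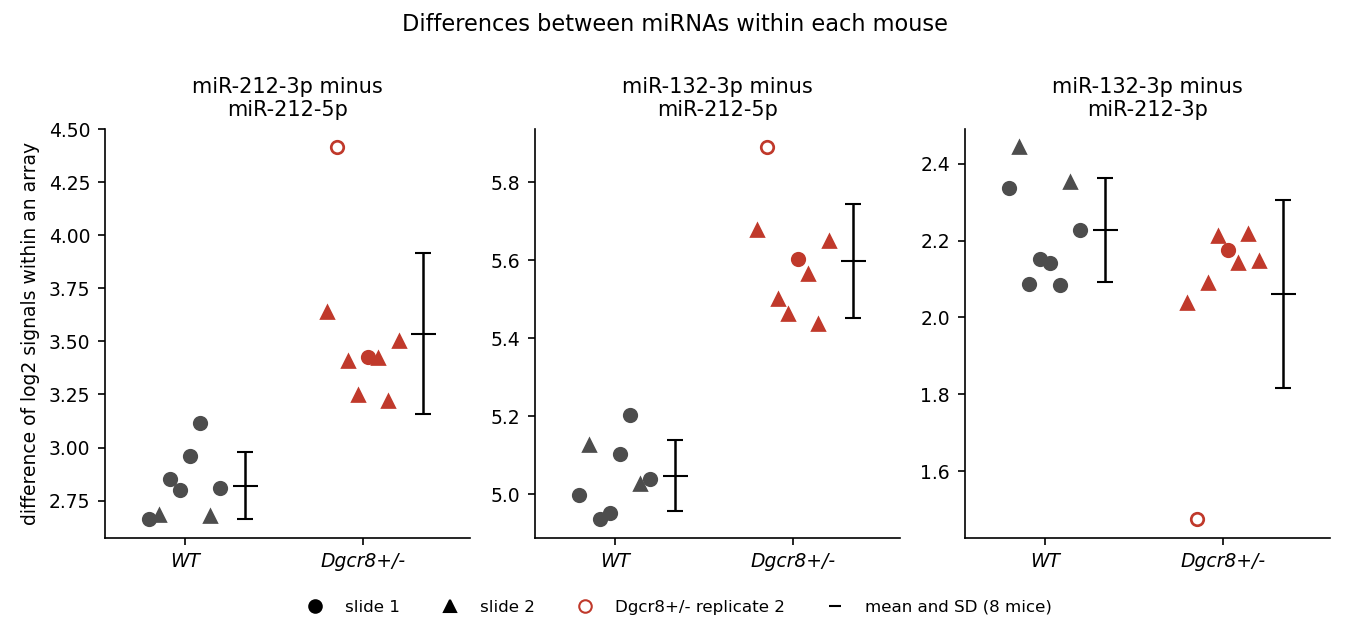
Each point is 1 mouse and gives the difference between the log2 signals of 2 miRNAs on the same array, in log2 units, for WT and Dgcr8+/- mice, with the mean and SD of 8 mice as bars. Both differences that involve miR-212-5p separate the genotypes, the lowest Dgcr8+/- mouse being at 3.22 against a highest WT mouse of 3.12 in the first panel, while the difference between the 3p arms overlaps. The open circle is Dgcr8+/- replicate 2.

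The unequal change of the Mir212 arms was set beside other hairpins. For 80 hairpins both arms were tested, and the size of the difference between the log2 fold changes of their arms had a median of 0.10 and an upper quartile of 0.23. That of miR-212, 0.72, was the second largest, after miR-106b, whose 3p arm was detected in 3 of 8 Dgcr8+/- mice and had a mean log2 signal of 0.65 there. Among the 60 hairpins with both arms detected in all mice, a set chosen after the data were seen, miR-212 ranked 1, and the next largest size was 0.50. Without Dgcr8+/- replicate 2 the size for miR-212 was 0.59, and the hairpins were not ranked without that mouse. In 28 hairpins 1 arm was called and its partner was not, and in 13 of these, miR-212 included, the 5p arm was lower and the 3p arm was not called. In 30 hairpins both arms were called in the same direction, and in 0 hairpins were they called in opposite directions.

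**Figure D3:**
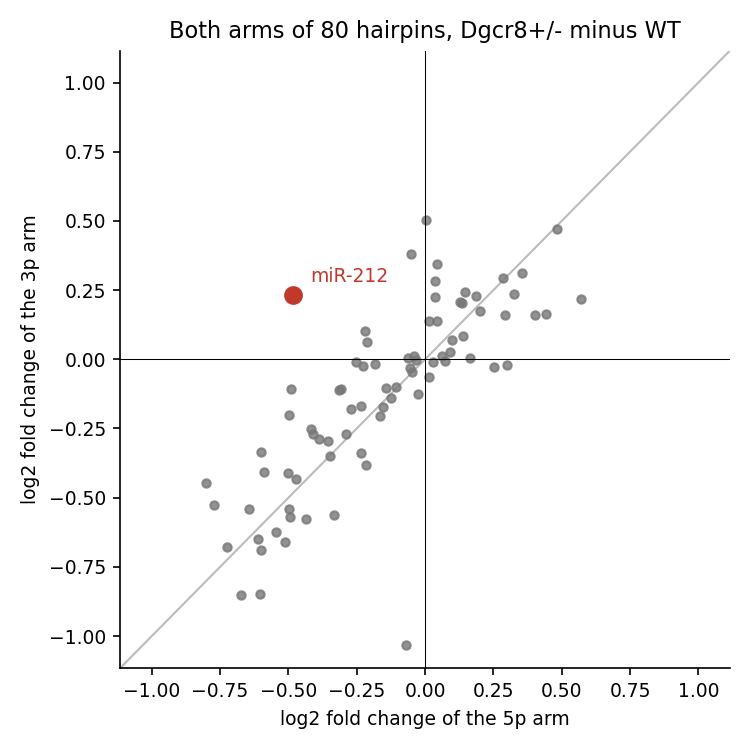
Each point is a hairpin with both arms tested, and the axes give the log2 fold change, Dgcr8+/- minus WT, of its 5p arm and of its 3p arm. On the grey diagonal both arms change equally. MiR-212, in red, lies above the diagonal at −0.48 for the 5p arm and 0.23 for the 3p arm, the latter not past the threshold and of opposite sign without normalization, and 80 hairpins are shown.

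Covariation across mice was examined within each genotype, since the genotypes differed. The 3 pairs and 2 genotypes gave 6 relations of 8 mice each, with exact permutation of the pairings and Benjamini-Hochberg adjustment over the 6. None passed after adjustment with quantile-normalized signals, and 3 were below 0.05 before it. The calls depended on the scaling. With no normalization between arrays, which leaves differences in brightness between arrays in place, 4 passed, all 3 in WT mice and miR-132-3p with miR-212-5p in Dgcr8+/- mice. With each array scaled to its 75th percentile over the probes detected on all arrays, 2 passed. These were miR-132-3p with miR-212-5p in WT mice (r = 0.90, adjusted exact permutation p = 0.00298) and the 3p arms in Dgcr8+/- mice (r = −0.94, adjusted exact permutation p = 0.0246), the latter with the opposite sign. For the WT relation, the Spearman coefficient was 0.90 (exact permutation p = 0.00456, adjusted p = 0.0274). Its r was 0.77 without the 2 mice farthest from the median of miR-132-3p. With no normalization, r for that pair without the 2 farthest mice was 0.90. For the 3p arms in Dgcr8+/- mice, the Spearman coefficient was −0.62 (exact permutation p = 0.115, adjusted p = 0.138). Its r was −0.37 without the 2 mice farthest from the median of miR-132-3p, so the pass rested on those mice.

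In WT mice, miR-132-3p and miR-212-5p, which come from different hairpins, gave Pearson's r = 0.82 (exact permutation p = 0.026, adjusted p = 0.0521) and a Spearman coefficient of 0.51 (exact permutation p = 0.207, adjusted p = 0.401). Without the 2 mice farthest from the median of miR-132-3p, r was −0.23. With quantile-normalized signals the relation thus rested on those mice, WT replicates 5 and 6, unlike with the other scalings above. With outlier-marked spots kept, r was 0.15. MiR-132-3p and miR-212-3p gave r = −0.05 (exact permutation p = 0.924, adjusted p = 0.924) and a Spearman coefficient of −0.37 (exact permutation p = 0.387, adjusted p = 0.464), with r = −0.62 without the 2 farthest mice. The 2 arms of Mir212 gave r = 0.23 (exact permutation p = 0.558, adjusted p = 0.67) and a Spearman coefficient of 0.45 (exact permutation p = 0.267, adjusted p = 0.401), with r = 0.08 without the 2 farthest mice.

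In Dgcr8+/- mice, the 3p arms gave r = 0.88 (exact permutation p = 0.011, adjusted p = 0.0521) and a Spearman coefficient of 0.55 (exact permutation p = 0.163, adjusted p = 0.401), with r = 0.65 without the 2 farthest mice and 0.58 without replicate 2. The 2 arms of Mir212 gave r = −0.77 (exact permutation p = 0.0249, adjusted p = 0.0521) and a Spearman coefficient of −0.71 (exact permutation p = 0.0576, adjusted p = 0.346), but r was −0.09 without the 2 farthest mice, so the relation rested on them, and −0.39 without replicate 2. MiR-132-3p and miR-212-5p gave r = −0.44 (exact permutation p = 0.274, adjusted p = 0.41) and a Spearman coefficient of −0.12 (exact permutation p = 0.783, adjusted p = 0.783), with r = 0.02 without the 2 farthest mice and 0.37 without replicate 2. With quantile-normalized signals, Dgcr8+/- replicate 2 was the highest mouse of its group for both 3p arms and the lowest for miR-212-5p. Before normalization, replicate 2 was the lowest of its group for miR-132-3p, at 1870 signal units, and for miR-212-5p, at 45.4. It was still the highest of its group for miR-212-3p, at 820 signal units. Within the slide that held 6 mice of a genotype, r was 0.36 for the 3p arms, 0.88 for miR-132-3p with miR-212-5p and 0.36 for the Mir212 arms in WT mice on slide 1. In Dgcr8+/- mice on slide 2 it was 0.55, 0.32 and −0.49, respectively. The adjusted exact permutation p over these 6 relations was 0.217 to 0.519, and the remaining 2 mice of each genotype were too few for a relation.

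**Figure D4:**
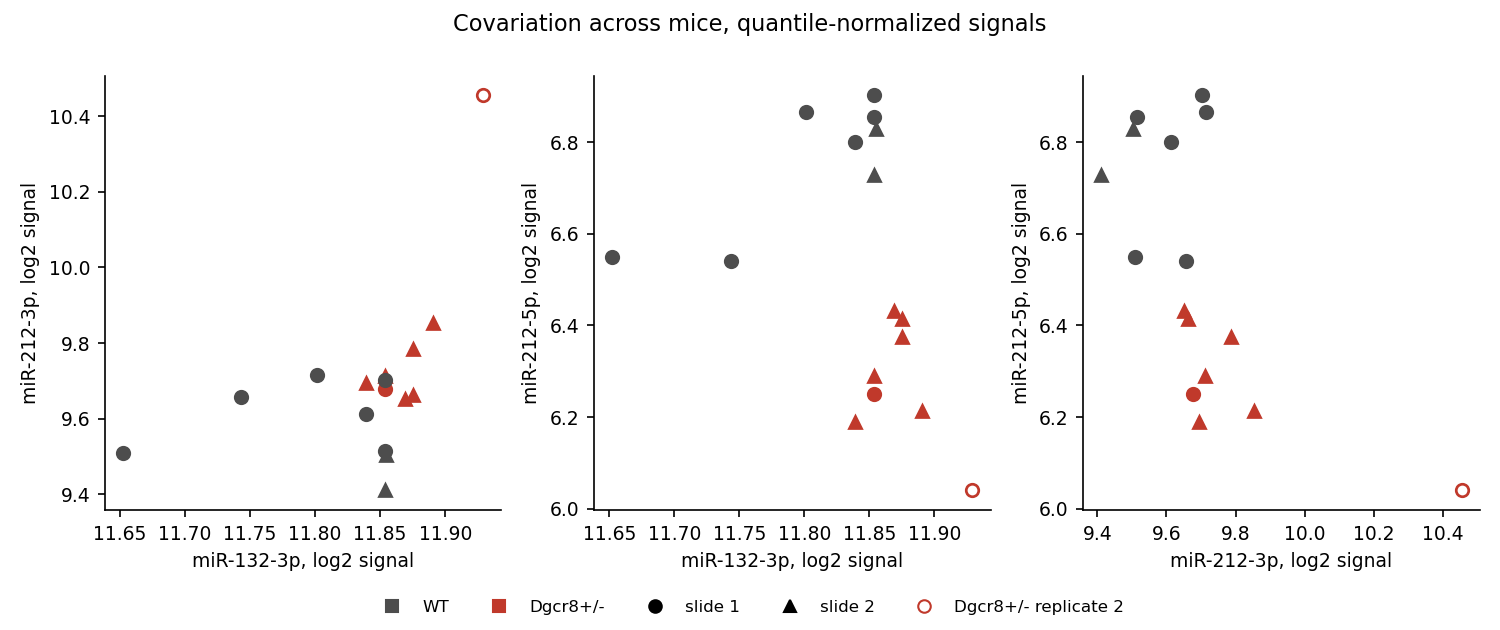
Each point is 1 mouse, and the axes give the log2 quantile-normalized signal of 2 miRNAs, in grey for WT and in red for Dgcr8+/- mice. With these signals, the relation of miR-132-3p with miR-212-5p among WT mice rests on the 2 mice at the lower left. Among Dgcr8+/- mice replicate 2, the open circle, lies far from the others on miR-212-3p at 10.45.

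To place these values among all miRNAs, the genotype means were subtracted and each member was correlated over the 16 arrays with every other tested miRNA, as a description. The arrays share their normalization and slides, and the closest miRNAs changed with the scaling. MiR-132-3p varied most like miR-22-3p (r = 0.86, and 0.85 without Dgcr8+/- replicate 2), followed by miR-7221-3p (r = 0.66) and miR-153-3p (r = 0.63). None of these was among its closest 3 with no normalization (miR-337-5p, miR-337-3p and miR-378a-3p) or with the 75th percentile of probes detected on all arrays (miR-337-3p, miR-130b-3p and miR-299b-5p). MiR-212-5p varied most like miR-378a-5p (r = 0.89), miR-337-3p (r = 0.79) and miR-378a-3p (r = 0.78), of which miR-378a is encoded in an intron of Ppargc1b. MiR-378a-5p was detected in all 8 WT and in 0 Dgcr8+/- mice, so its r includes 8 values below detection. MiR-212-3p varied most like miR-6987-5p (r = 0.98), miR-7666-3p (r = 0.97) and miR-6368 (r = 0.97). Without Dgcr8+/- replicate 2 the values for miR-212-3p were 0.91, 0.84 and 0.82.

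MiR-132-3p and miR-212-5p were closer to each other than either was to miR-212-3p. Their r was 0.46, which placed miR-212-5p at rank 31 of 494 for miR-132-3p and miR-132-3p at rank 86 for miR-212-5p. Without Dgcr8+/- replicate 2 it was 0.72 with ranks 2 and 3, and with each array scaled to its 75th percentile over the probes detected on all arrays it was 0.76 with ranks 33 and 2. MiR-212-3p gave r = 0.27 with miR-132-3p and r = −0.42 with miR-212-5p, and 0.03 and 0.05 without Dgcr8+/- replicate 2. The order differed between genotypes. In WT mice alone, r of miR-132-3p was 0.82 with miR-212-5p and −0.05 with miR-212-3p. In Dgcr8+/- mice alone it was −0.44 and 0.88, and 0.37 and 0.58 without replicate 2.

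A list of 16 other miRNAs known to be linked to neuronal activity, CREB, BDNF or Mef2, or to act in dendrites, was read beside the cluster. Of these 15 were tested, and 6 were lower, 3 were higher and 6 were not called in Dgcr8+/- mice, where 27.9% of all tested miRNAs were lower and 28.3% were higher. Their median log2 fold change was −0.01, against 0.04 for all tested miRNAs. The most lowered were miR-329-3p (log2 fold change −0.69, adjusted p = 1.3e-06 from limma) and miR-379-5p (−0.60, adjusted p = 2.89e-06 from limma), both from the Mef2-responsive miRNA cluster on chromosome 12. The most raised were miR-188-5p (0.39, adjusted p = 9.46e-05 from limma), known from synaptic plasticity, and miR-181a-5p (0.25, adjusted p = 0.000859 from limma), known to repress the AMPA receptor subunit GluA2. Of the 6 lower miRNAs of the list, 5 are encoded on chromosome 12, not on chromosome 11 where Mir132 and Mir212 lie.

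The miRNAs of other cell types were read as lists as well. Of the 6 neuronal miRNAs 1 was lower and 1 was higher, and their summed signal was 41207 to 44942 in WT mice and 42265 to 44759 in Dgcr8+/- mice. Of the other lists, 0 of 5 multiciliated, 1 of 2 choroid plexus, 0 of 3 oligodendrocyte, 0 of 4 vessel, 0 of 2 red blood cell and 1 of 3 microglial and immune miRNAs tested were lower, and 0, 0, 1, 2, 0 and 0 were higher. Though not called, the 5 multiciliated miRNAs had a median log2 fold change of 0.29, against 0.03 for the neuronal and 0.04 for all tested miRNAs. The summed signal of the multiciliated miRNAs was 541 to 1286 in WT mice and 868 to 1568 in Dgcr8+/- mice. The part of cell composition in the fall of miR-212-5p was not tested.

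**Figure D5:**
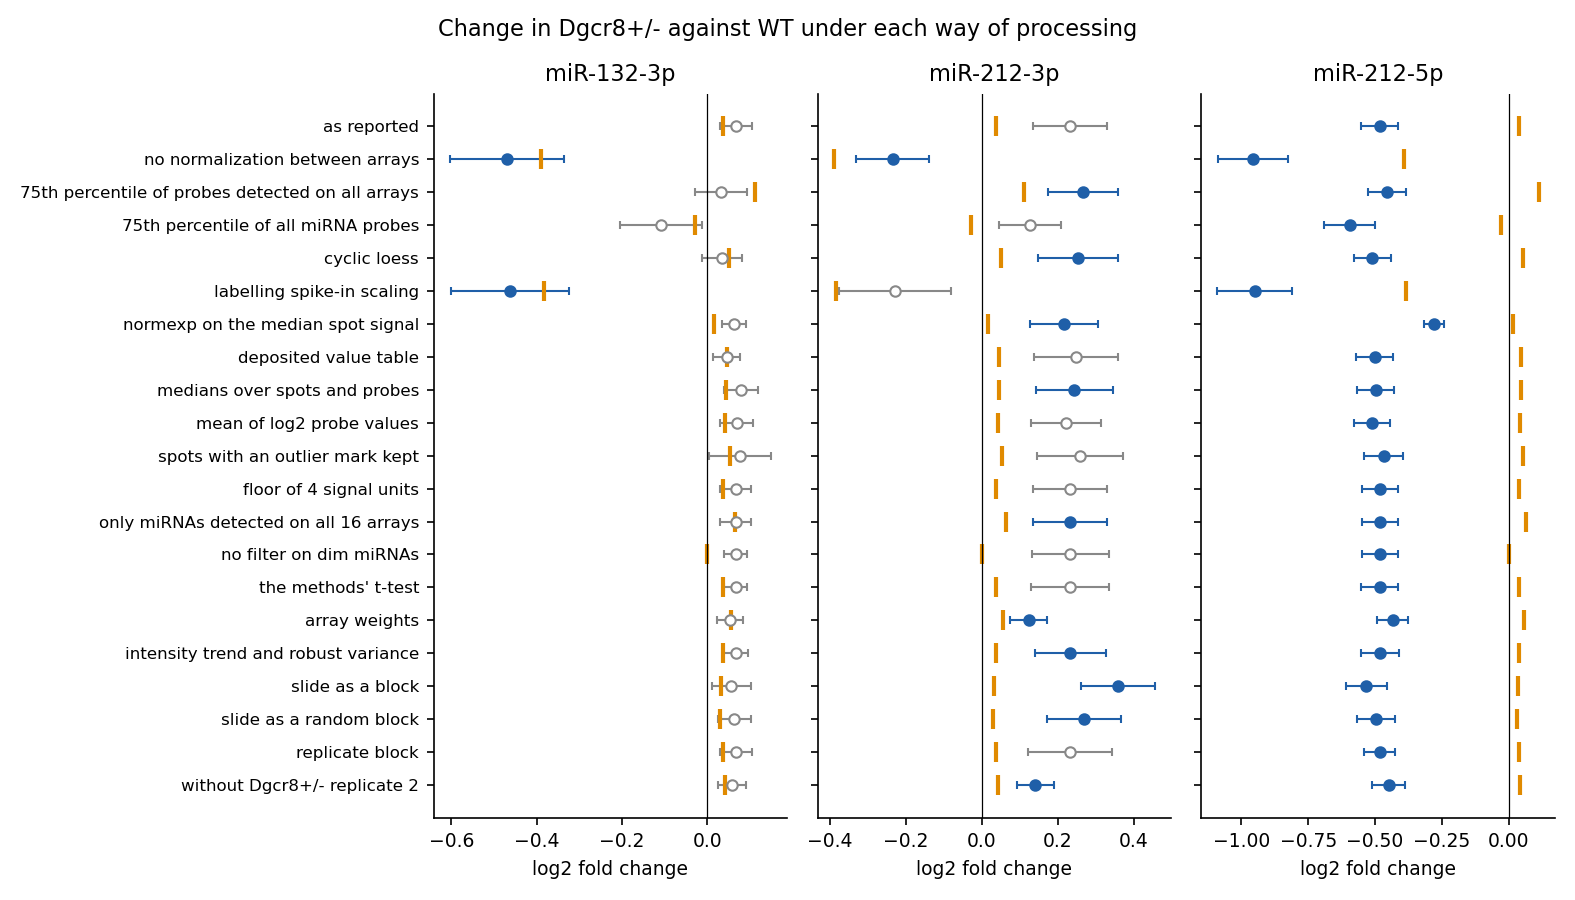
Log2 fold change, Dgcr8+/- minus WT, of the 3 detected members under each way of processing, with bars of 1 SE. Filled blue points have an adjusted p below 0.05, open grey points do not, and orange ticks give the median of all tested miRNAs under the same processing. MiR-212-5p is below 0 and called throughout, from −0.96 to −0.28, whereas miR-132-3p and miR-212-3p are below 0 with no normalization and with spike-in scaling, where the median of all tested miRNAs is also below 0. MiR-132-3p is called lower in both of these settings, and miR-212-3p only with no normalization.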

How the data were processed

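The authors labelled total RNA from the LV wall with Cy3, hybridised it to the Agilent Mouse miRNA v21 array and extracted it with Feature Extraction (10.5.1.1 per the labels, 10.7.3.1 per the file headers). They deposited spot intensity values with background subtracted and no normalization between arrays, and a table of the total gene signal, also an intensity, which equals that in the scanner files. Per the file headers, the software's detection calls come with them. No array was left out. The array holds no probe for the Dgcr8 mRNA, so the genotype labels could not be checked from it.

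Here, control spots and outlier-marked spots were dropped, the remaining spots were averaged per probe, the 4415 probes were quantile-normalized as in the methods, probes were averaged per miRNA, values under 1 were set to 1 and log2 was taken. Genotypes, from the labels, were compared with limma 3.58.1 in R 4.3.3. Exact permutation tests were run in Python 3.11.15 with numpy 2.4.6, and the ranks for Spearman coefficients came from scipy 1.17.1. The limma step was tested on simulated data. The plan held 6 pairs of members and 12 relations, but with miR-132-5p undetected 3 and 6 were possible. Named miRNAs were the members, the 3 most like each detected member, any miRNA with a member's seed, and the 2 most lowered and 2 most raised of the activity list. The members and lists were chosen with earlier results of these data known. Alternatives covered the normalization, background correction, summary over probes, filter, test, slide and replicate number, and each mouse was left out in turn. The number of arrays limits the precision.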

Additional observations from a re-analysis of the deposited data

Results flagged for a closer look

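In 3 of 12 groups of 8 mice searched, 1 mouse lay farther from the others than Dixon's 95% critical value allows, where chance flags about 1 group in 20, or 0.6 of 12. All 3 are the same mouse, Dgcr8+/- replicate 2, and all involve miR-212-3p. The flagged differences contain the same miR-212-3p signal, so the 3 flags are not independent events. Its log2 signal of miR-212-3p was 10.45, against 9.65 to 9.85 in the other 7 Dgcr8+/- mice. Its difference of miR-132-3p minus miR-212-3p was 1.47, against 2.04 to 2.22. Its difference of miR-212-3p minus miR-212-5p was 4.41, against 3.22 to 3.64. The same array had the lowest hybridisation spike-ins, 12.7 against 13.9 to 14.1 on the other Dgcr8+/- arrays, and its part in these values was not tested.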

How the results depend on the processing

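MiR-212-5p kept its direction and its call under all 35 alternatives, from −0.96 to −0.28 over the 19 that kept every mouse and from −0.51 to −0.45 when each mouse was left out in turn. The other members moved with the scaling. With no normalization between arrays, miR-132-3p was at −0.47 and miR-212-3p at −0.23, with labelling spike-in scaling they were at −0.46 and −0.23, and with the 75th percentile of all miRNA probes miR-132-3p was at −0.11. The median of all tested miRNAs was then −0.39, −0.38 and −0.03. Relative to the median, miR-132-3p was at −0.08 and miR-212-3p at 0.16 in both of the first settings, and miR-212-5p at −0.57. These settings differ only by a scaling of each array, so the values relative to the median are the same by construction. The counts over all tested miRNAs, 138 lower and 140 higher, became 293 and 0 with no normalization and 264 and 0 with spike-in scaling. In the activity list, 13 and 11 miRNAs were then lower and 0 and 0 higher, and 1 was higher with the 75th percentile of all miRNA probes.

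MiR-212-3p passed the threshold with the 75th percentile of probes detected on all arrays (0.27), cyclic loess (0.25), normexp (0.22), medians over spots and probes (0.24), only miRNAs detected on all 16 arrays (0.23), array weights (0.12), an intensity trend with robust variance (0.23), the slide as a block (0.36) and the slide as a random block (0.27). Leaving out each mouse gave 0.14 to 0.26, and it gave 0.04 to 0.07 for miR-132-3p, and 5 to 6 lower and 3 higher in the activity list. Normexp used the median spot signal, as the files hold no mean.

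The difference of miR-132-3p minus miR-212-3p passed with no normalization and with the 75th percentile of probes detected on all arrays (−0.23 in each). These settings differ only by a scaling of each array, which cancels in a difference, so they give the same values and count as a single result. Both differences with miR-212-5p kept their call in all 5 alternatives run, which include these identical settings. Covariation moved most. With no normalization, r was 0.84 for the 3p arms, 0.96 for miR-132-3p with miR-212-5p and 0.79 for the miR-212 arms in WT mice, and 0.02 for the 3p arms, 0.97 for miR-132-3p with miR-212-5p and 0.0504 for the miR-212 arms in Dgcr8+/- mice, and 4 of 6 passed. With the 75th percentile of probes detected on all arrays it was 0.52 for the 3p arms and 0.90 for miR-132-3p with miR-212-5p in WT mice, and −0.94 and 0.63 in Dgcr8+/- mice, and 2 of 6 passed. Without the 2 farthest mice, the −0.94 became −0.37 and the 0.90 became 0.77. With outlier-marked spots kept, r was 0.27 for the 3p arms in WT mice and 0.35 for miR-132-3p with miR-212-5p in Dgcr8+/- mice, and without Dgcr8+/- replicate 2 the latter was 0.37. The cause was not tested.

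With a replicate block, the log2 fold changes were 0.07 for miR-132-3p, 0.23 for miR-212-3p and −0.48 for miR-212-5p, with adjusted p of 0.152, 0.0912 and 0.000122 from limma, so no member's call changed. The deviations of same-numbered mice correlated at −0.14 to 0.50, over 0.1 in 5 of 8 pairs, which does not reach the bar set for pairing, over 0.1 in every pair, and 3 of 8 WT mice correlated best with their own number. MiR-132-5p was not well above background in either genotype, so no fold is given for it under any alternative.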
